A study of Mus musculus with 6 samples.

Results

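Death receptors and their adaptors were examined in mouse blood neutrophils with and without phd3, the oxygen-dependent prolyl hydroxylase gene now named Egln3. The group was defined by name as 10 genes, namely the ligands Fasl and Tnfsf10, the receptors Fas, Tnfrsf10b, Tnfrsf1a and Tnfrsf1b, the adaptors Fadd, Tradd and Ripk1, and the regulator Cflar. Every probe set annotated to 1 of these symbols was taken. This gave 21 of the 45037 non-control probe sets, standing for 9 of the 10 genes. Ripk1 was not analysed here, since the annotation table pairs no probe set with its symbol alone.

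The wild-type group (called bl6 in the labels) and the phd3 null group each held 3 mice on a C57 background, 1 Affymetrix array per mouse. All neutrophils were taken from peripheral blood, per the study's design text, by negative magnetic selection and kept for 4 h at 3% oxygen, so the controls were hypoxic too and no array here was kept at normal oxygen. Age, sex and the way the gene was deleted are not given in the sources used here. Same-numbered samples of the genotypes share a code in the source labels, whose meaning is not given, and were also compared as pairs. Values are MAS5 signals, a linear brightness summarised over the probes of a probe set, and their precision is limited by the number of arrays. A signal of 1 probe set says nothing about the level of another, so the genes are not ranked by brightness.

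Fas ligand and TRAIL (encoded by Tnfsf10) are TNF family ligands that bind receptors carrying an intracellular death domain, Fas and, in the mouse, the TRAIL receptor encoded by Tnfrsf10b. FADD links such receptors to caspase-8, and c-FLIP, the product of Cflar, competes with caspase-8 for that place. TNF receptor 1 (Tnfrsf1a) carries a death domain and recruits TRADD and the kinase RIPK1, while TNF receptor 2 (Tnfrsf1b) has none and signals through TRAF proteins. Neutrophils are short-lived cells in which Fas ligation is known to hasten apoptosis, and TNF can either hasten or delay it.

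As a check of the labels, the Egln3 signal was 63.4 ± 30.1 on the phd3 null arrays against 1383 ± 931 on the wild-type ones (SD, n = 3). In order of sample number it read 87.2, 29.6 and 73.5 in phd3 null and 2088, 1733.9 and 327 in wild type. Within pairs 1 to 3 the log2 differences were -4.35, -5.26 and -1.94, the smallest being in pair 3. The Egln3 log2 fold change passed in limma with the replicate number as a block (adjusted p = 0.00140) and not without it (adjusted p = 0.9996). Both arrays of replicate 3 stood apart, with median correlations to the other arrays over 10960 genes of 0.739 and 0.788, against 0.838 to 0.866 for the other 4. The median signal was 64.2 in phd3 null sample 3 and 60.3 in wild-type sample 3, against 49.4 to 52.1 on the other 4. Of 12 neutrophil markers, 10 had a probe set with 1 symbol, and all 10 were above the filter on low values. Their summed signal was 25869 to 51202 in phd3 null and 43075 to 57064 in wild type, and 5 of the 10 were lower on both replicate 3 arrays than on the other 4. The filter asked for a mean log2(signal + 16) of at least 5.90, the median of the probe sets. Among other cell types, summed signals of 5 monocyte or macrophage markers were 4761.1 and 5602.8 in the replicate 3 arrays against 17003 to 18464 elsewhere, with 3 of the 5 below the other 4 arrays. Those of 6 B cell markers were 2603.4 and 3214.7 against 258.3 to 580.5, with 5 of the 6 above. No marker signal of these lists was 0.

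No death receptor gene passed the test between genotypes. Fold changes here are log2(signal + 16) as phd3 null minus wild type. Their standard errors (SE) come from limma fits, and a gene was called at an adjusted p under 0.05. Of the 9 genes with a probe set, 8 were above the filter on low values and Tnfrsf10b was below it. Of these 8, 0 were called without the replicate block, where 0% of all 10960 genes were called, and 0 with it, where 0.0182% were. At an unadjusted p under 0.05 there were 0 of 8 without the block (1.74% of all genes) and 1 of 8 with it (5.62%). By brightest probe set, 3 of the 8 were higher in phd3 null and 5 lower. Their median log2 fold change was -0.20, against -0.01 over all genes tested, and -0.22, 0.24 and -0.26 within pairs 1 to 3. The median thus changed sign between the pairs. When each probe set was tested on its own, 0 of 21 were called with or without the block (0.0133% and 0% of all 45037), and 0 of 21 had an unadjusted p under 0.05 without it (3.07% of all). Without the block the adjusted p of each was 0.9997.

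**Figure D1:**
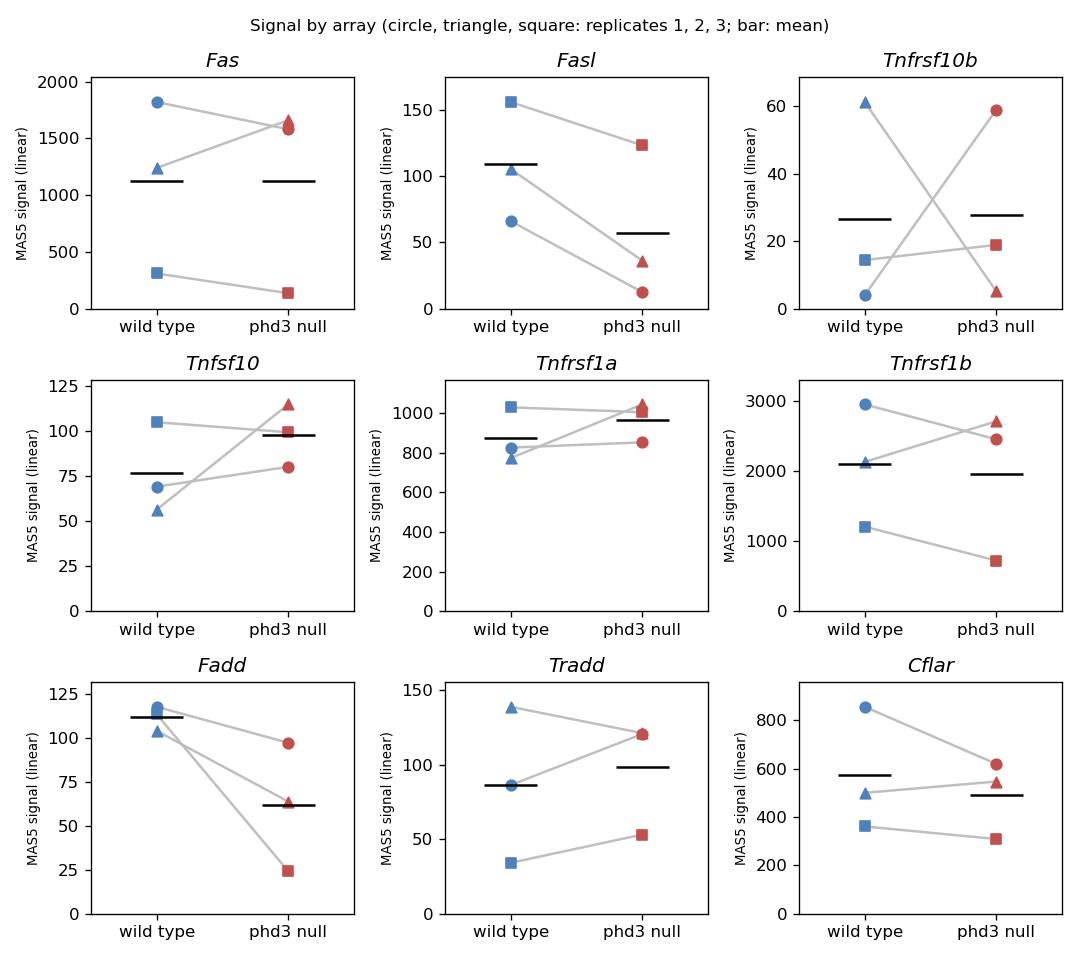
MAS5 signal (linear axis from 0) of the 9 genes by their brightest probe set in 3 wild-type (blue) and 3 phd3 null (red) arrays. Grey lines join same-numbered samples and black bars are group means. Fadd is the gene whose phd3 null signals, 24.1 to 97.3, all lie under the wild-type ones, 104.1 to 117.8; in Fas, Tnfrsf1b, Tradd and Cflar both squares (replicate 3) lie lowest.

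Among the ligands, Fasl gave opposite answers by its probe sets. By the brighter one the Fasl signal was 12.6, 36.3 and 123.3 in phd3 null samples 1, 2 and 3, and 66.1, 105.4 and 156 in the wild-type samples. In 3 of 3 pairs the phd3 null value was the lower one, by -1.52, -1.21 and -0.30, although the groups overlapped. The log2 fold change was -1.01 (SE 0.61, 95% interval -2.32 to 0.29, unadjusted p = 0.118 in limma). With the block the interval was -2.05 to 0.03 in the fit over probe sets and -2.02 to -0.01 in the gene fit, where Fasl was the 1 of 8 with an unadjusted p under 0.05 (unadjusted p = 0.0482, adjusted p = 0.883 in limma). Leaving out phd3 null sample 1 reduced the fold change to -0.49, and leaving out phd3 null sample 3 moved it to -1.63. The other Fasl probe set read 71.6, 62.8 and 163.9 in phd3 null and 2.6, 118 and 75 in wild type. Its log2 fold change was 0.82 (SE 0.69), with pairs of 2.24, -0.77 and 0.98. Over the 6 arrays these probe sets correlated at 0.239 as a description, and the mean of both gave a fold change of -0.10.

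Fasl is made mainly by natural killer (NK) and activated T cells, and markers of these cells were measured on the same arrays. Of 11 NK markers 10 had a probe set, all above the filter, and 10 of 10 had a lower mean log2 signal in phd3 null. In order of sample number, their summed signal was 774.1, 3586.9 and 2786.6 in phd3 null against 1654.7, 7758.1 and 4321.3 in wild type. The sum, of which Gzma was the largest part, was lower in phd3 null in every pair, as the brighter Fasl probe set was. The other Fasl probe set was lower in 1 of 3 pairs. Single NK markers did not all follow the sum. In pair 1 Ncr1, Gzmb, Prf1 and Klrd1 were higher in phd3 null and the rest lower, and in pair 3 Ncr1 was higher. The 8 T cell markers with a probe set, 5 of them above the filter, summed to 332.2 to 764.1 in phd3 null and 227.5 to 556.8 in wild type, and 3 of the 8 were lower in phd3 null. Both replicate 3 arrays were above the other 4 for the brighter Fasl probe set, 4 of the 8 T cell markers and 0 of the 10 NK markers. The part of these cells in the Fasl signal was not tested. In such samples fewer cells of a type and less RNA per cell cannot be told apart.

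Tnfsf10, the TRAIL gene, had 3 probe sets. The brightest read 80.2, 114.9 and 99.4 in phd3 null and 69.2, 56.4 and 105 in wild type. Groups overlapped, the log2 fold change was 0.32 (SE 0.45, 95% interval -0.64 to 1.28), and the pairs gave 0.18, 0.85 and -0.07. The other probe sets, both under the filter on low values, gave -0.89 (SE 0.73) and -0.03 (SE 0.58). Averaging the 3 turned the direction, to -0.20.

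Of the receptors, Fas varied more between replicates than between genotypes. Its single probe set read 1581.6, 1660.6 and 136.9 in phd3 null samples 1, 2 and 3 and 1821.5, 1240.8 and 310.7 in the wild-type samples. Both replicate 3 arrays were far below the other 4, and the genotypes overlapped. Group means were 1126 ± 858 (phd3 null) and 1124 ± 762 (wild type; SD, n = 3). The log2 fold change was -0.29 (SE 0.76, 95% interval -1.91 to 1.32). Its pairs were -0.20, 0.42 and -1.10, and the block narrowed the interval to -0.78 to 0.20 (unadjusted p = 0.227, adjusted p = 0.945 in limma). The direction was not stable, since leaving out phd3 null sample 3 gave 0.85, wild-type sample 1 gave 0.21, pair 3 gave 0.11 and wild-type sample 3 gave -1.03.

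Tnfrsf1b also read lowest on the replicate 3 arrays, by both of its probe sets. The TNF receptor 2 signal by the brighter probe set was 2455.9, 2713.5 and 722.4 in phd3 null and 2954.7, 2132.3 and 1208.1 in wild type. The second probe set read 613.1, 402.8 and 230.2 in phd3 null and 620.5, 447.5 and 183.5 in wild type. The genotypes overlapped in both. Fold changes were -0.22 (SE 0.51, 95% interval -1.30 to 0.87) and 0.05 (SE 0.43, 95% interval -0.88 to 0.97). With the block the intervals were -0.68 to 0.25 and -0.42 to 0.51. Across the 6 arrays the brighter Tnfrsf1b probe set and Fas correlated at 0.994, a description of 6 points that share the replicate 3 arrays. For the brighter probe set leaving out phd3 null sample 3 gave 0.39, wild-type sample 1 gave 0.07 and pair 3 gave 0.040.

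Tnfrsf1a, the TNF receptor with a death domain, had the smallest SE of the 9 genes by brightest probe set. Its probe set read 853, 1044.9 and 1005.4 in phd3 null and 826.5, 773.6 and 1030.3 in wild type. The means were 967.8 ± 101 and 876.8 ± 136 (SD, n = 3), and the groups overlapped. Here the replicate 3 arrays were within the range of the other 4. The log2 fold change was 0.15 (SE 0.31, 95% interval -0.52 to 0.81), with pairs of 0.04, 0.43 and -0.03. When 1 array was left out it ran from 0.06 to 0.27. With the block the interval was -0.27 to 0.56.

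The sequence upstream of Fas, Tnfrsf1b and Tnfrsf1a is shown because the replicate 3 arrays were lowest for Fas and Tnfrsf1b and within the range of the others for Tnfrsf1a. Each line is the 250 bases before the gene's start from RefSeq (GRCm38.p6), 5′ to 3′ on the gene's strand, which is Fas at chr19:34290409-34290658 (plus strand), Tnfrsf1b at chr4:145246871-145247120 (minus strand) and Tnfrsf1a at chr6:125349473-125349722 (plus strand). Capitals mark the core of the hypoxia response element bound by HIF, searched as ACGTG and GCGTG on both strands.
Fas: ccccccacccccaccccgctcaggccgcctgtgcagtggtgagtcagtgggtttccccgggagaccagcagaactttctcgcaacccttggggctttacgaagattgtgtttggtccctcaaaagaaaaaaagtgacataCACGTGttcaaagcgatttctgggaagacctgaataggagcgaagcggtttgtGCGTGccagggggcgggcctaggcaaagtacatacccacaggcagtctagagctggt
Tnfrsf1b: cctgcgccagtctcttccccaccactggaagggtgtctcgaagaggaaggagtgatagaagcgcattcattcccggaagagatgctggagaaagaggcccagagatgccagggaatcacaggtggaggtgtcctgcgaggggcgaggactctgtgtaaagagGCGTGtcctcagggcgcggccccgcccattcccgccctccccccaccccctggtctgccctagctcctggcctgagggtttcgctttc
Tnfrsf1a: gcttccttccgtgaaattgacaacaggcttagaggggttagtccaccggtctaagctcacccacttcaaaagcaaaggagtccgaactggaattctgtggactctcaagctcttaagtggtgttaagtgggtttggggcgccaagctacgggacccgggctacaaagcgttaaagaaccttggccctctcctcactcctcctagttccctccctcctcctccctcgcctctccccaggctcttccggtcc
In the Fas window 3 matches were found, starting 110, 109 and 57 bases before the start, the first pair being both strands of 1 overlapping CACGTG, which is also an E-box. Tnfrsf1b held 1 match, 88 bases before its start, and Tnfrsf1a held 0. Such a core is common, with 38.6% of 32851 RefSeq windows of the same length holding 1 or more, so a match is a description only. Of the 10 genes 8 had an entry, Tnfrsf10b and Tradd being those without. Tradd, whose replicate 3 arrays were both lowest, is thus missing from this comparison. Fadd, whose replicate 3 arrays were not both lowest, held 1 match, 194 bases before its start, and Cflar, whose replicate 3 arrays were, held 0. The windows of Fasl and Tnfsf10 held 0, and each of the 2 windows of Ripk1 held 1.

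Genes with both replicate 3 arrays below the other 4 made up 16.9% of all genes tested, and Bnip3 and Ldha are examples picked for their values. The hypoxia-induced gene Bnip3 was at 202.3 in phd3 null sample 3 and 195.7 in wild-type sample 3, against 2575.4 to 4817.4 in the other 4 arrays. Ldha, the lactate dehydrogenase A gene, was at 1166.5 and 895.9 against 4149.7 to 4997.2. Since both were picked for being low there, their low values carry no support. Fas, Tnfrsf1b, the summed monocyte markers and 5 of the 10 neutrophil markers were low on the same 2 arrays. On these arrays 18.5% of all genes tested and 5 of the 6 B cell markers were instead above the other 4. The part of these genes and cell types in the Fas and Tnfrsf1b signals was not tested.

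Tnfrsf10b, the TRAIL receptor, was under the filter on low values by both probe sets. The brighter read 58.9, 5.2 and 18.9 in phd3 null and 4, 61.2 and 14.4 in wild type, with no order between the genotypes. The fold change of 0.08 (SE 0.68) had an interval of -1.38 to 1.54, and the dimmer probe set, at 1.9 to 36.8 on all 6 arrays, had an interval of -0.97 to 0.96. No detection calls were used, so these signals do not tell whether the receptor was expressed.

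Fadd, the adaptor of Fas and the TRAIL receptor, was the 1 gene of the 8 whose groups did not overlap. Among all genes tested 6.92% had groups that did not overlap, 3.02% with phd3 null lower. The brighter probe set read 97.3, 63.8 and 24.1 in phd3 null samples 1, 2 and 3, and 117.8, 104.1 and 113.5 in the wild-type samples. The wild-type values lay close together, at 111.8 ± 7.01, while the phd3 null values spread, at 61.7 ± 36.6 (SD, n = 3). The log2 fold change was -0.84 (SE 0.50, 95% interval -1.91 to 0.23, unadjusted p = 0.114 in limma), and -0.24, -0.59 and -1.69 within the pairs. It was negative under all 15 alternatives run, from -1.17 to -0.41. The value nearest 0 among the left-out arrays was without phd3 null sample 3, at -0.43. With the block the interval was -1.80 to 0.12 (adjusted p = 0.933). The second Fadd probe set, under the filter, read 6, 7.8 and 16.2 in phd3 null and 5.2, 57.2 and 15.9 in wild type, with a fold change of -0.52 (SE 0.54). That difference lay in pair 2, at -1.62, the other pairs giving 0.05 and 0.01.

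Tradd, the adaptor of TNF receptor 1, had 3 probe sets. The brightest, the one above the filter, read 120.7, 121.3 and 53.1 in phd3 null and 86.4, 139 and 34.1 in wild type. Both replicate 3 arrays were lowest, the groups overlapped, and the fold change was 0.24 (SE 0.53, 95% interval -0.88 to 1.35). It was -0.21 without wild-type sample 3 and 0.01 as the mean of the probe sets. The dim probe sets gave 0.41 (SE 0.73) and -0.60 (SE 0.49), the latter lower in 3 of 3 pairs at signals of 3.9 to 39.8.

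Cflar, whose product c-FLIP blocks caspase-8 activation at the receptors, was read by 5 probe sets that did not move as 1. The brightest read 619.7, 546.6 and 308.5 in phd3 null and 856, 499.7 and 360.6 in wild type. Its replicate 3 arrays were lowest and the genotypes overlapped. The fold change was -0.18 (SE 0.37, 95% interval -0.97 to 0.61), turning to 0.11 when phd3 null sample 3 was left out and to 0.15 when wild-type sample 1 was. The second probe set read 202.7, 320.5 and 109.9 in phd3 null against 349.9, 306.4 and 309.7 in wild type. In it the wild-type arrays were close together and phd3 null samples 1 and 3 were below them all. Its fold change was -0.68 (SE 0.37, 95% interval -1.47 to 0.10), with pairs of -0.74, 0.06 and -1.37. Of the 21 probe sets it was the 1 with an unadjusted p under 0.05 in the limma fit with the block (unadjusted p = 0.0216, adjusted p = 0.933), where 5.11% of all probe sets were. The third gave -0.71 (SE 0.49), the next 0.06 (SE 0.75) and the dimmest, under the filter, -0.52 (SE 0.76). The mean of the 5 was -0.41. Which Cflar isoforms the probe sets read was not examined.

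**Figure D2:**
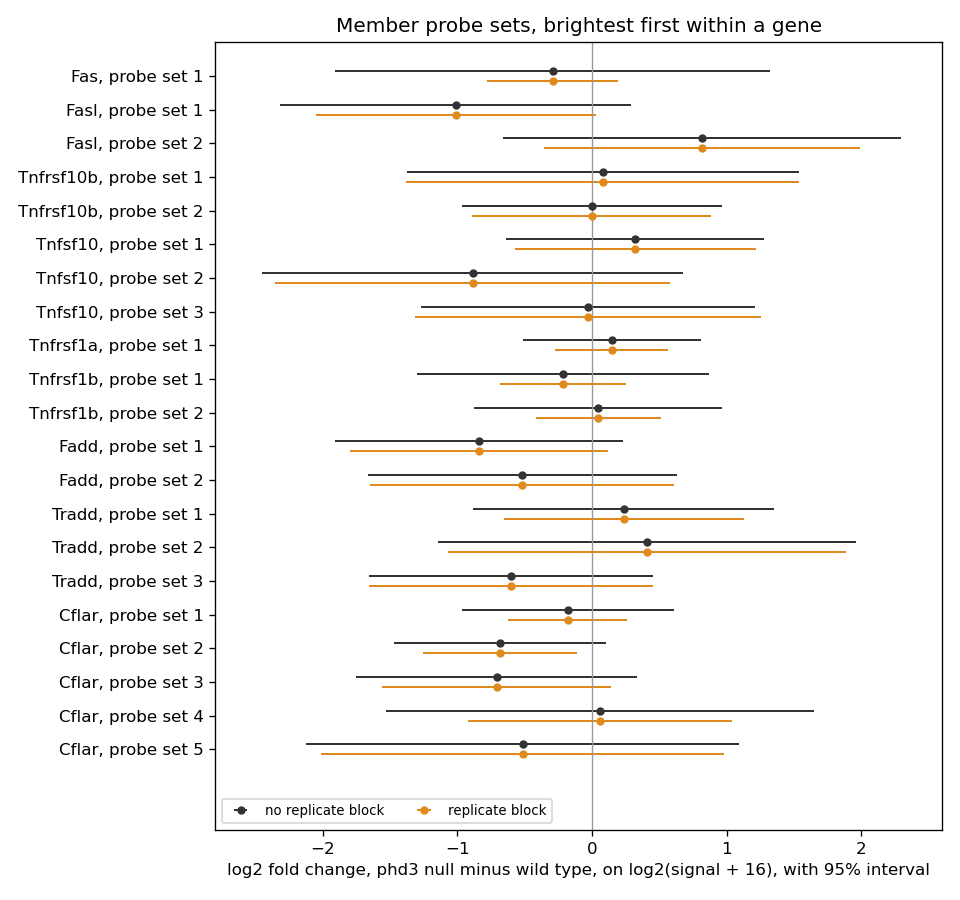
Log2 fold change (phd3 null minus wild type, on log2(signal + 16)) of the 21 probe sets with 95% intervals from limma, without (black) and with (orange) the replicate block, brightest probe set first within a gene. The second Cflar probe set is the 1 whose interval with the block, -1.26 to -0.11, leaves out 0.

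Disagreement between probe sets was common in this group, as it was among all genes tested. Of the 7 genes with several probe sets, 6 had fold changes of both signs, Fadd being the exception. Among all tested genes with several probe sets 63.8% of 6917 had both signs, so the count for these genes is a description. That share covers genes above the filter, while the 7 include Tnfrsf10b, which was under it. In Tnfrsf10b, Tnfrsf1b and Cflar the second sign rested on a value near 0, at -0.003, 0.05 and 0.06. The brighter and dimmer Tnfrsf1b probe sets correlated at 0.852 over the 6 arrays. Against the brightest Cflar probe set the others, from brighter to dimmer, gave 0.589, -0.296, 0.878 and 0.001. For Tradd they gave 0.354 and -0.159, and for Tnfrsf10b 0.521. For Fadd the correlation was 0.0311, and for Tnfsf10 it was -0.0417 and 0.318 against the brightest.

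The spread over the arrays was set against genotype and replicate number for the 8 genes above the filter. Replicate number took a larger share of the sum of squares of log2(signal + 16) than genotype in 7 of the 8, against 80.6% of all genes tested. Replicate number has more levels than genotype and so takes a larger share on average even where neither has an effect. In Fas it took 93.8%, in Tradd 90.0%, in Cflar 89.9% and in Tnfrsf1b 88.4%. Genotype took 1.14% in Fas, 3.97% in Tradd, 3.72% in Cflar and 2.25% in Tnfrsf1b, all under the median of all genes, 8.94%. The exception was Fadd, with 47.4% for genotype and 26.9% for replicate number. In Tnfsf10 the shares were 28.5% and 29.2%, and in Fasl 32.3% and 59.3%. With 6 arrays these shares are descriptions and carry no test.

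**Figure D3:**
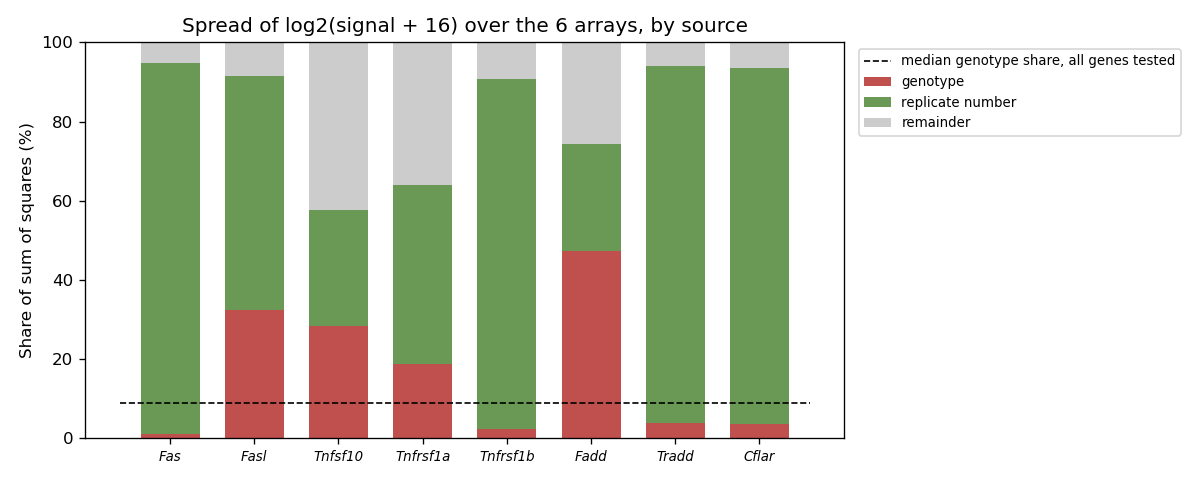
Share of the sum of squares of log2(signal + 16) over the 6 arrays that lay between genotypes (red), between replicate numbers (green) or in neither (grey), for the 8 genes above the filter, in percent. The dashed line is the median genotype share of all 10960 genes, 8.94%; Fadd is the gene with more between genotypes (47.4%) than between replicates (26.9%).

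Both replicate 3 arrays lay below the other 4 in 4 of the 8 genes, Fas, Tnfrsf1b, Tradd and Cflar, and above them in 1, Fasl. Among all genes tested 16.9% were below in this way, as given above, and 18.5% were above. Of the 8 genes 2, Fasl and Fadd, differed in 1 direction in 3 of 3 pairs, both with phd3 null lower, where 25.6% of all genes tested did so in either direction.

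**Figure D4:**
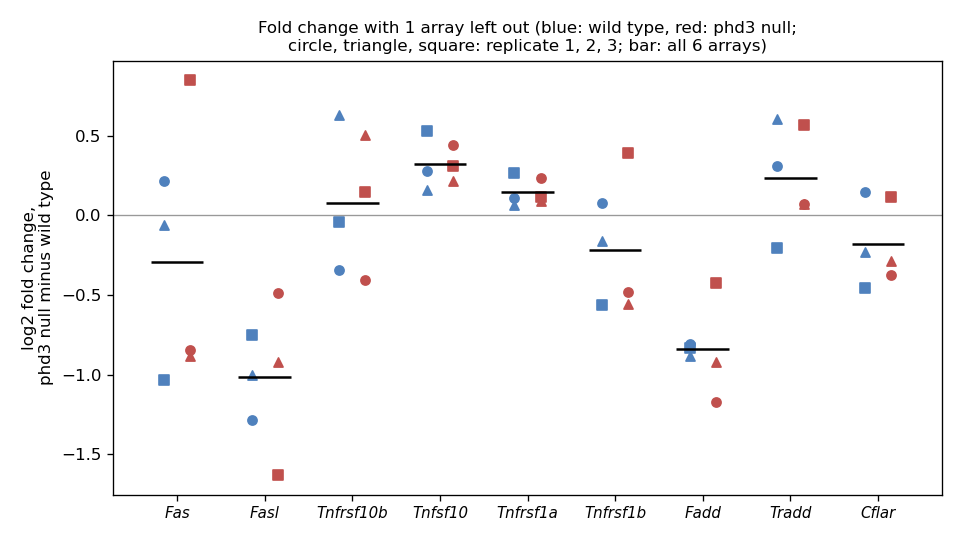
Log2 fold change (phd3 null minus wild type) of the 9 genes by brightest probe set when 1 array was left out, coloured by the genotype of that array and shaped by its replicate number, with a bar for all 6 arrays. Fas ran from -1.03 to 0.85 and Tnfrsf1b from -0.56 to 0.39, while Fadd stayed between -1.17 and -0.43 and Fasl between -1.63 and -0.49.

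The genes whose pattern over the 6 arrays was most like that of each gene were found by Pearson correlation of log2(signal + 16) over all genes tested. For Fas these were Tmcc1 (0.999), Tbk1 (0.998) and Rhoa (0.998), and 371 genes were above 0.95. Those of Tnfrsf1b were Tmem185b (0.999), Clec4e (0.997) and Sft2d1 (0.997), with 307 above 0.95. Cflar was closest to the cathepsin gene Ctsb (0.999), Fgl2 (0.997) and Marcksl1 (0.996), and Tradd to Nmi (0.997), Adam10 (0.989) and Hprt (0.989). Nearest to Fasl were Prss41 (0.997), Ppp1r8 (0.996) and Prpf8 (0.994), and to Fadd Degs1 (0.991), Ndst4 (0.990) and Slc6a2 (0.985). Tnfsf10 was closest to Nsd3 (0.984), Tnfrsf1a (0.982) and Afg1l (0.981). For Tnfrsf1a they were Afg1l (0.986), 1810044D09Rik (0.986) and Tasor2 (0.985), and here 18 genes were above 0.95. With so few arrays many genes reach high values. Over the 4 arrays without replicate 3, Fas and Rhoa correlated at 0.924 and Tradd and Adam10 at 0.886, while Cflar and Ctsb (1.00) and Tnfsf10 and Tnfrsf1a (0.985) stayed at or above their values over 6.

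Other genes of death receptor and TNF receptor signalling were taken from a list of 40, of which 38 had a probe set and 35 were tested. None passed, with 0 called higher and 0 lower in limma in either fit. At an unadjusted p under 0.05 there were 2 of 35 without the block and 3 with it, against 1.74% and 5.62% of all genes. Higher in phd3 null were 19 and lower 16, with a median log2 fold change of 0.01. Groups did not overlap in 4 of 35, with 2 higher and 2 lower, against 6.92% of all genes.

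By smallest p in the gene fit without the block, the 4 on the higher side were Tnfrsf21, Otulin, Traf5 and Daxx. Tnfrsf21 encodes death receptor 6, and its signal was 89.5, 137.5 and 147 in phd3 null and 59, 71.5 and 37.6 in wild type. The groups did not overlap, and the log2 fold change was 0.97 (SE 0.38, unadjusted p = 0.0306 and adjusted p = 0.9996 in limma), with pairs of 0.49, 0.81 and 1.60. Otulin, a deubiquitinase that removes linear ubiquitin chains, was at 187.6, 173 and 176.8 against 123.6, 160.4 and 50.1. Its fold change was 0.73 (SE 0.40), and most of it lay in pair 3, at 1.54. The adaptor gene Traf5 differed by 0.72 (SE 0.64) and Daxx, which encodes a Fas-binding protein, by 0.35 (SE 0.32).

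On the lower side of the same fit they were Map3k7, Traf1, Pea15a and Traf2. Map3k7 encodes TAK1, the kinase that TNF receptor 1 signalling uses to activate IKK. It was at 92, 114.5 and 103.9 in phd3 null and 177.1, 217.6 and 155.1 in wild type, lower in 3 of 3 pairs by -0.84, -0.84 and -0.51. The groups did not overlap, and the fold change of -0.73 (SE 0.31, unadjusted p = 0.0403 in limma) did not pass (adjusted p = 0.9996, and 0.857 with the block). Traf1, a TRAF protein induced by NF-kB, was at 156.5, 208.7 and 214.1 against 227.9, 284.4 and 281.5, also without overlap, with a fold change of -0.43 (SE 0.30). Pea15a, which encodes a death effector domain protein, differed by -0.39 (SE 0.42) and Traf2, the adaptor of both TNF receptors, by -0.32 (SE 0.34). With the block the smallest p of the list was that of Ikbkg, the NEMO subunit gene of the IKK complex, which was named after its values were seen. It was lower in phd3 null by -0.65, -0.56 and -0.51 in pairs 1 to 3, a fold change of -0.58 (SE 0.24 with the block, unadjusted p = 0.0275, adjusted p = 0.842 in limma). Its replicate 3 arrays were below the other 4, and without the block the SE was 0.68. Casp8, the initiator caspase that FADD recruits, differed by 0.14 (SE 0.35), and Tnf by -0.05 (SE 0.67); both were named for their place in the pathway after the values were seen.

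**Figure D5:**
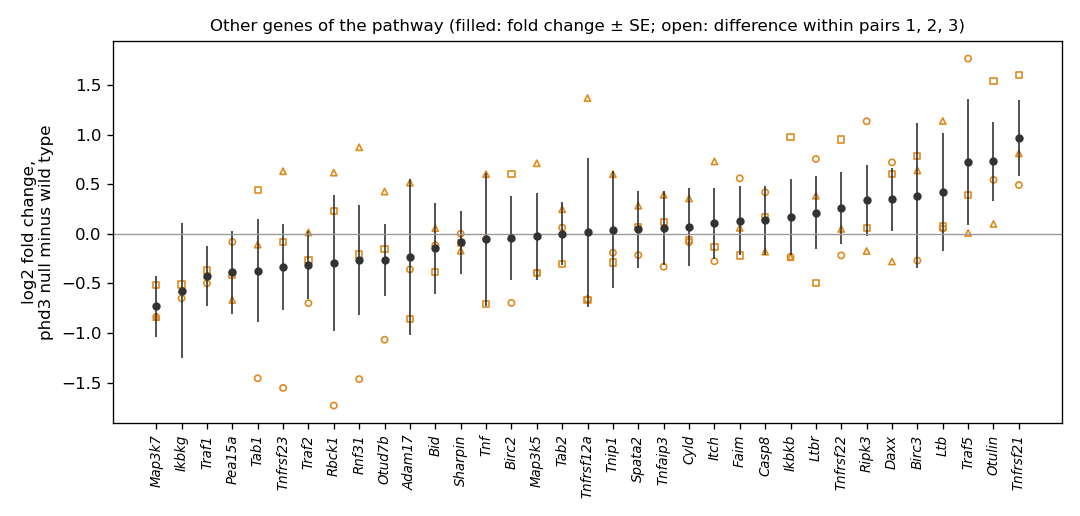
Log2 fold change (phd3 null minus wild type) with SE (filled points and bars) and within-pair differences (open circle, triangle and square for pairs 1, 2 and 3) of the 35 other pathway genes above the filter. The values run from -0.73 for Map3k7 to 0.97 for Tnfrsf21 around a median of 0.01, and none passed.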

How the data were processed

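The authors deposited MAS5 signal intensities, linear and scaled within each array, per the submitters' processing notes; the MAS5 version and the genome build are not given in the sources used here. Of 45101 probe sets, 64 controls were left out. Among the rest 34945 had 1 symbol, 932 several and 9160 none here. A gene was read by its probe set of highest mean log2(signal + 16), with pseudocount 16, and genes below 5.90 were not tested, leaving 10960.

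Genotypes were compared with limma 3.58.1 in R 4.3.3 (lmFit, eBayes with a trend, two-sided, Benjamini-Hochberg over all features), without a block, for genes and again for all 45037 probe sets with no filter. The code was run on simulated data with planted changes far larger than those of the 9 genes. Recovery of such changes was required only of the fit with the block. That run does not show whether changes of the size seen here would be found. SEs, intervals and unadjusted p-values of single probe sets of the 9 genes come from the fit over probe sets; those of other genes and all counts of genes come from the gene fit.

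Same-numbered samples were treated as pairs because their labels carry the same code, whose meaning the labels do not give. Deviations from the group means correlated at 0.292, 0.151 and 0.474 within pairs 1 to 3. Phd3 null sample 2 with wild-type sample 1 gave 0.177, and phd3 null sample 1 with wild-type sample 2 gave 0.096. Correlations of a replicate 3 array with a sample of another number were -0.363 to -0.187. The correlations thus set replicate 3 apart but cannot decide how samples 1 and 2 pair, since 0.177 is above 0.151. The block is an alternative, as are the pseudocount, filter, normalization, probe set rule and left-out arrays. Each array is 1 mouse, per the labels.

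Genes were named by a rule: all members, Egln3, the 4 pathway genes of smallest p per direction without the block, and the 3 genes of highest correlation with each member. Bnip3, Ldha, Ikbkg, Casp8 and Tnf were named outside it, after their values were seen. The members and lists were chosen with earlier results of these data known.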

Additional observations from a re-analysis of the deposited data

How the results depend on the processing

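Across 15 alternatives 0 of the death receptor genes and 0 of the other pathway genes were called, and 0 member probe sets in the 13 alternatives that apply to them. In 11 of the 15 alternatives 0 genes of the whole series were called, so 0 calls among the members carry no information there. The fit reported did not call Egln3 either (adjusted p = 0.9996 in limma). Over all genes the count of calls was 0 in the fit reported and 2 with the replicate block, 1 without pair 3, and 46 with the block and without pair 3, an alternative chosen after seeing the data that has few residual degrees of freedom. It ran from 0 to 1 when 1 array was left out, the 1 being without wild-type sample 3.

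The replicate block changed no call among the members or the pathway genes. The direction held in all 15 alternatives for Fasl, Tnfrsf1a and Fadd. Fasl was read there by its brighter probe set, except in the mean of both probe sets, at -0.10. Its other probe set, also above the filter, gave 0.82 in the fit reported. The direction turned for Fas and Tnfrsf1b without pair 3, to 0.11 and 0.040 with or without the block. For Tnfsf10 it turned with the mean of its probe sets, to -0.20. With 1 array left out, fold changes (log2) spanned -1.03 to 0.85 for Fas, -0.41 to 0.63 for Tnfrsf10b, -0.56 to 0.39 for Tnfrsf1b, -0.21 to 0.61 for Tradd and -0.46 to 0.15 for Cflar. In the fits with an array left out fewer samples are used; otherwise the cause was not tested. Signals near the pseudocount, as for Tnfrsf10b, limit what a fold change can show: Fasl gave -1.38 and Fadd -1.05 with a pseudocount of 1, and -0.58 and -0.53 with 64.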
